A study of Mus musculus with 6 samples.

Results

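The neurotrophin and GDNF family genes examined here were 2 neurotrophin ligands (Bdnf, Ntf3), their tyrosine kinase receptors (Ntrk2, Ntrk3), the signalling receptor of the GDNF family (Ret) and 2 of its ligand-binding co-receptors (Gfra1, Gfra2). They were taken by name and make up 7 of the 24841 genes of the table; all 7 were listed. The values come from single-nucleus RNA sequencing of frozen mouse striatum, in 3 libraries labelled wild type and 3 labelled Celsr3 heterozygous. Each library is labelled as a biological replicate of its own. Celsr3 encodes a seven-pass cadherin of the planar cell polarity group. The labels give no other allele or agent, no age, sex or strain, no pooling of animals and no preparation batch, and nothing shared by both groups beyond tissue and protocol.

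BDNF and NT-3 are secreted growth factors that bind the receptor tyrosine kinases TrkB (Ntrk2) and TrkC (Ntrk3). The striatum is known to receive much of its BDNF through axons from cortex and other regions, while its medium spiny neurons (MSNs), the projection neurons marked by the dopamine receptor genes Drd1 or Drd2, carry TrkB. GDNF and neurturin bind the co-receptors GFRalpha1 (Gfra1) and GFRalpha2 (Gfra2), which are anchored to the membrane and pass the signal on through Ret; GFRalpha1 also acts with the adhesion molecule NCAM in cells without Ret.

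Nuclei were clustered without the 7 genes and without 48 other pathway genes, so the classes below do not rest on them. After doublets were left out, 47893 of 48834 nuclei were kept, 7592 to 8672 per library; 549 nuclei shared a barcode with a nucleus of another library. The deposited whole numbers behave as depth-corrected molecule (UMI) values and not as raw counts, and a level is the mean value per nucleus of a library. Wild-type replicate 1 had the fewest genes per nucleus, with a median of 2436.5 against 2829 to 3002 in the other 5 libraries. D1 and D2 MSN-like nuclei, named from striatal markers, made up 17.7% and 14.9% of nuclei; classes are called after marker lists, with "-like" added. Composition was uneven: glutamatergic neuron-like nuclei numbered 561, 195 and 910 in the wild-type replicates 1, 2 and 3 and 1504, 211 and 508 in the heterozygous replicates 1, 2 and 3, and whether they come from tissue next to the striatum was not tested. Celsr3 itself was lower in every heterozygous library than in any wild-type one over all nuclei, with a log2 change of -0.46 ± 0.14 (SE, n = 3 each) that did not pass the adjustment over all genes (limma, adjusted p = 0.456); it was -0.23 with a pseudocount of 0.1 in place of 0.01 and -0.57 (adjusted p = 0.0651) with nuclei matched on genes detected within clusters. Throughout, libraries are listed in that order, and errors over 6 libraries are SDs.

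In the GENCODE M21 annotation of GRCm38, Bdnf lies at 2:109674700-109727007 on the plus strand, Ntf3 at 6:126101412-126166910 on the minus strand, Ntrk2 at 13:58806569-59133970 on the plus strand and Ntrk3 at 7:78175959-78738012 on the minus strand. Ret lies at 6:118151745-118197718 and Gfra1 at 19:58235604-58455909, both on the minus strand, and Gfra2 at 14:70890120-70979838 on the plus strand. Antisense genes that are also listed in the table overlap Bdnf (Gm45346), Ntrk2 (Gm47423 and 4930415C11Rik), Ntrk3 (4921513I08Rik and Gm9885) and Gfra1 (Gm16277), and Gm39038 lies within an intron of Ntrk3 on the same strand. Whether counting used strand is not given in the sources used here, so how far reads of such pairs were kept apart is not known.

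The promoters of the ligands are shown because both ligand transcripts were concentrated in the same class of neurons. RefSeq (GRCm38.p6) lists 7 start sites for Bdnf and 2 for Ntf3, and the 250 bases before each were searched on both strands for ACGTCA, the core of the cyclic AMP response element, and CACGTG, an E-box; the motifs do not overlap each other here. For Bdnf 1 of 7 windows held the first motif, chr2:109692186-109692435 on the plus strand, and for Ntf3 1 of 2 held the second, chr6:126166745-126166994 on the minus strand. Of 32851 windows of this length, 6.47% held ACGTCA and 6.02% held CACGTG. Capitals mark the match, which is a description of the letters and not a measured site.
Bdnf: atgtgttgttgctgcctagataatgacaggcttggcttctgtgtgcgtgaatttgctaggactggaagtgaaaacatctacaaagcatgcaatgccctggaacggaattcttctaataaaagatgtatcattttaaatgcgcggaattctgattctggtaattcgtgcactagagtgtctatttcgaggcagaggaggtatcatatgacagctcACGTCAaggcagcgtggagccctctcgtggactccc
Ntf3: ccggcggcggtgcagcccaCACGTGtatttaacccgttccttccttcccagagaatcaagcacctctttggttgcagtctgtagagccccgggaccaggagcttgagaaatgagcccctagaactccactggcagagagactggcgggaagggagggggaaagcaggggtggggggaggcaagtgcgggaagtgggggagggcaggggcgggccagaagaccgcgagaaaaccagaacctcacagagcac

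Bdnf, the TrkB ligand, was highest in glutamatergic neuron-like nuclei. The mean value per nucleus there was 0.264, 0.467 and 0.479 in wild-type and 0.312, 0.739 and 0.333 in heterozygous libraries. The mean over libraries was 0.432 ± 0.173, 25.2 times that of D1 MSN-like nuclei, and the lowest of these 6 libraries lay above the highest library of the next class. In the rest of the 14 classes tested (those with 20 or more nuclei per library) the means ran from 0.00417 to 0.033, and the ranges of every neighbouring pair in that order overlapped. Glutamatergic neuron-like nuclei made up 8.12% of the nuclei kept and held 53.1% of the summed Bdnf value. A Bdnf value was present in 23.1% of them (median of 3570 genes per nucleus), against 1.7% of D1 MSN-like, 1.56% of D2 MSN-like and 0.808% of microglia-like nuclei (medians of 3392, 3262 and 1896 genes). Microglia-like nuclei served as the class expected to lack neuronal transcripts, so the MSN shares were not far above that background.

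Within the glutamatergic class Bdnf differed by cluster (clusters carry numbers given in order of size). Cluster 28, led by Nr4a2, Smoc2 and Ntng2, stood at 1.2 ± 0.391, with a value in 51.3% of its 269 nuclei. Cluster 17, led by Slc26a4 and Rspo2, stood at 0.69 ± 0.422 and cluster 8, led by 4930467D21Rik and Tafa1, at 0.409 ± 0.213. Cluster 13, led by Trabd2b and carrying Ccn2 among its top genes, stood at 0.0526 ± 0.0217, and its highest library (0.0877) lay below the lowest of the other 3 clusters (0.269). The mean of cluster 28 was 22.8 times that of cluster 13. Heterozygous replicate 2 had the highest Bdnf level in clusters 17, 8 and 13, and in cluster 28 heterozygous replicates 2 and 3 were highest, at 1.60 and 1.63, the former over 10 nuclei. Outside the named classes, unnamed clusters held 21.2% of the summed Bdnf value, at 0.162 in cluster 19 (led by Trpm6), 0.128 in cluster 11 and 0.0781 in cluster 4 (led by Sim1 and Baiap3). Cluster 11 had a median of 1721 genes per nucleus, below the 3538 of cluster 8.

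Ntf3, the TrkC ligand, was rare: 402 of 47893 nuclei (0.839%) held a value. Glutamatergic neuron-like nuclei were again highest, at 0.034, 0.036 and 0.123 in wild-type and 0.065, 0.133 and 0.010 in heterozygous libraries, and held 53.0% of the summed value. The lowest library was within the range of other classes, and the groups overlapped. Unlike Bdnf, most of this came from 1 cluster, number 8, which held 45.7% of all Ntf3 and stood at 0.072, 0.167 and 0.197 in wild-type and 0.110, 0.229 and 0.000 in heterozygous libraries. In heterozygous replicate 3, Ntf3 was found in 0 of 75 nuclei of that cluster, which allows a share of nuclei with a value, not of nuclei that express the gene, of up to 4.0%, for counting error only. The same library was the highest for Ntf3 in the unnamed cluster 4, at 0.137 against 0.0088 or less in the other 5, and that cluster made up 21.3% of the summed value. Microglia-like nuclei had a value in 0.0425% of cases.

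**Figure D1:**
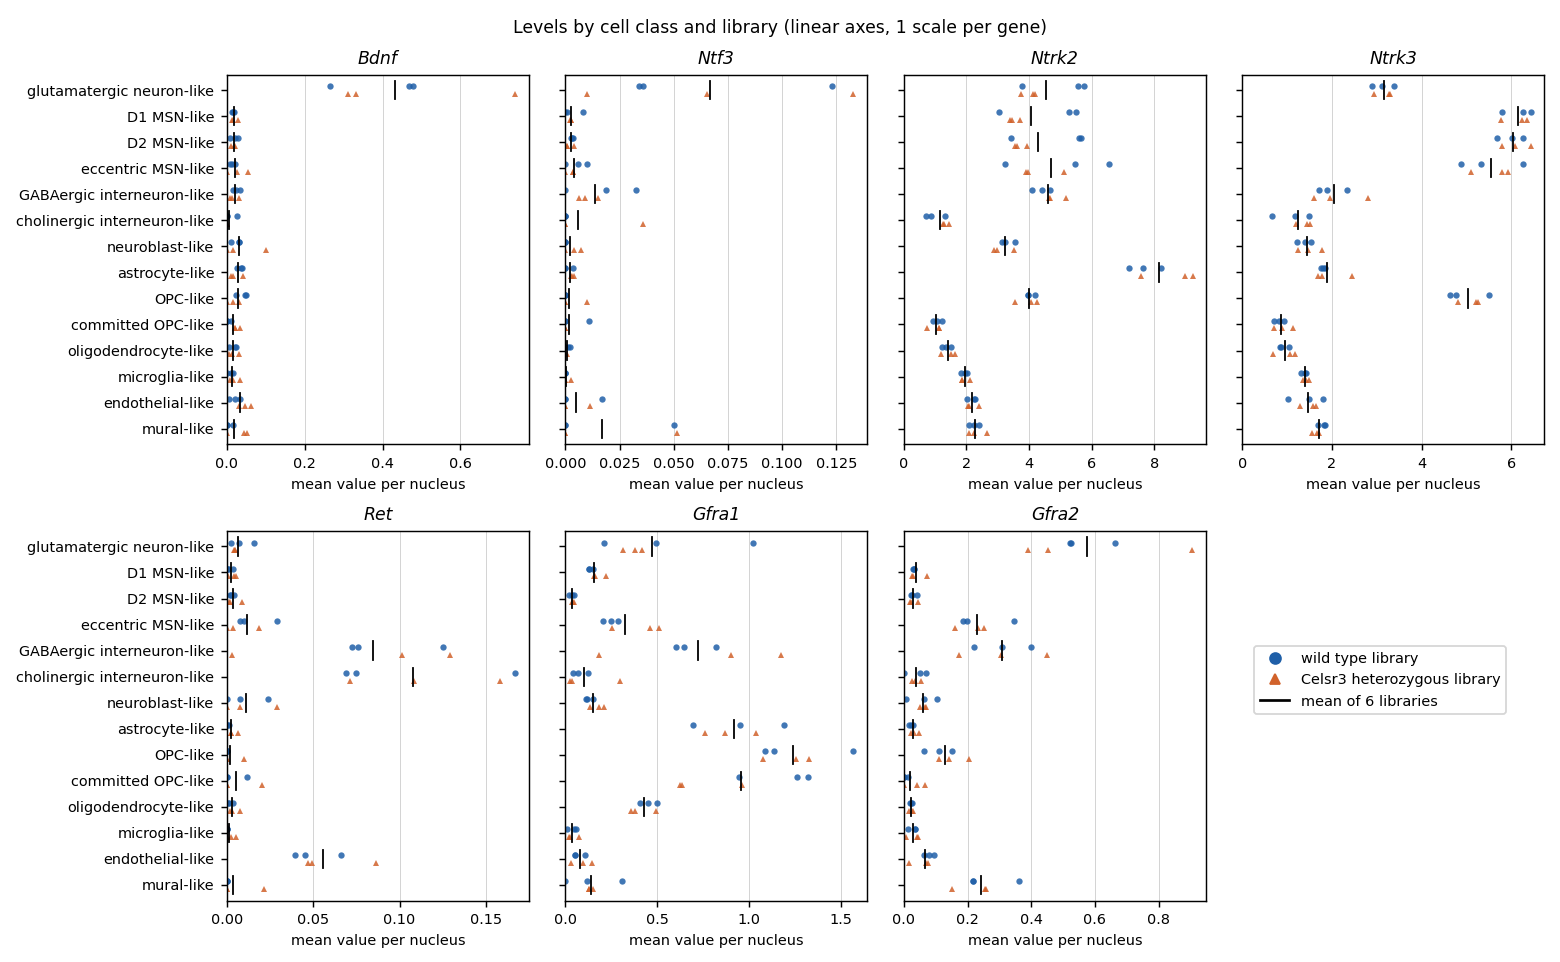
Mean value per nucleus (x axis, linear, with its own scale per gene) of the 7 genes in 14 cell classes (y axis); circles are the 3 wild-type libraries, triangles the 3 heterozygous ones and black lines the mean of 6. Bdnf and Ntf3 are highest in glutamatergic neuron-like nuclei, Ntrk2 in astrocyte-like, and Ntrk3 in MSN-like and OPC-like nuclei, with means of 0.432, 0.0668, 8.15 and, in D1 MSN-like nuclei, 6.15, while the highest classes of Gfra1 overlap.

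Ntrk2, the BDNF receptor gene, was highest in astrocyte-like nuclei, at 8.22, 7.19 and 7.65 in wild-type and 7.58, 8.99 and 9.23 in heterozygous libraries. The lowest of these lay above the highest library of every other class tested. The mean of 8.15 ± 0.82 was 2.00 times that of D1 MSN-like nuclei. Among astrocyte-like clusters, number 22, led by Thbs4 and Veph1, stood at 12.7 ± 0.865, number 9, led by Etnppl, Agt and Slc6a11, at 9.03 ± 0.934 and number 3 at 7.09 ± 0.419. Ependymal-like nuclei, which were too few for a test, stood at 10.0 ± 1.91 over 152 nuclei.

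Neurons followed astrocytes in Ntrk2 level. The means were 4.7 in eccentric MSN-like, 4.61 in GABAergic interneuron-like, 4.53 in glutamatergic neuron-like, 4.29 in D2 MSN-like, 4.06 in D1 MSN-like and 4.0 in OPC-like nuclei, and the ranges of all neighbours in this order overlapped. Within D2 MSN-like nuclei, cluster 10, led by 9230009I02Rik and Zp3r, stood at 6.43 ± 1.77 and cluster 1 at 3.77 ± 0.959, 1.7 times apart, with cluster 10 higher in each library. Cholinergic interneuron-like nuclei were at the low end, at 1.14 ± 0.286.

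Low levels of Ntrk2 and Ntrk3 have to be set beside the values in microglia-like nuclei. In microglia-like nuclei Ntrk2 stood at 1.94 and 98.9% of nuclei held a value, but 66.2% of nuclei stood at exactly 1, and for Ntrk3 81.8% did. Pde10a, an MSN marker, had a value in 99.8% of the same nuclei, which had a median of 1896 genes. Cholinergic interneuron-like nuclei, with a median of 3814 genes, stood at 0 for Ntrk2 in 29.1% of cases. Astrocyte-like nuclei, at 1.88 for Ntrk3, stood at exactly 1 in 35.6% of cases and at 0 in 23.5%, unlike microglia-like nuclei. How much of such low levels is background of the depth-corrected table was not tested.

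Ntrk3, the NT-3 receptor gene, was highest in the projection neurons. D1 MSN-like nuclei stood at 5.80, 6.45 and 6.26 in wild-type and 6.36, 6.25 and 5.77 in heterozygous libraries. D2 MSN-like nuclei, at 6.05 ± 0.285, and eccentric MSN-like nuclei, at 5.55 ± 0.528, overlapped with them. OPC-like nuclei (oligodendrocyte precursors) came next at 5.03 ± 0.34, with a value in 97.4% of nuclei, and their lowest library lay above the highest of the glutamatergic class, at 3.15 ± 0.202. D1 and D2 MSN-like nuclei held 31.8% and 26.2% of the summed Ntrk3 value. Of the 14 classes tested, committed precursor-like and oligodendrocyte-like nuclei were lowest, at 0.861 and 0.945; choroid plexus-like nuclei, too unevenly spread over libraries for a test, stood at 0.309. Among GABAergic interneuron-like clusters Ntrk3 ran from 0.674 in cluster 25, led by Ush1c, through 1.54 in cluster 21, led by Sfta3-ps and Kit, and 2.55 in cluster 27, led by Nos1 and Chodl, to 3.4 in cluster 23, which carries Kcnc2 and Eya4.

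Ret, the kinase through which GDNF family ligands signal, was scarce: 553 of 47893 nuclei (1.15%) held a value. The highest class was cholinergic interneuron-like, at 0.167, 0.075 and 0.069 in wild-type and 0.071, 0.158 and 0.108 in heterozygous libraries, each over 24 to 40 nuclei. A value was present in 10.2% of these 196 nuclei, against 0.0851% of microglia-like, 0.236% of D1 MSN-like and 0.295% of D2 MSN-like nuclei. GABAergic interneuron-like nuclei came second at 0.0845 ± 0.0464, with ranges that overlapped, and nearly all of it lay in cluster 25. There Ret stood at 0.367, 0.4 and 0.3 in wild-type replicates and 0.314 and 0.316 in heterozygous replicates 2 and 3, with a value in 27% of 363 nuclei. Heterozygous replicate 1 had 0 nuclei of this cluster after doublets were left out. The other GABAergic clusters 21, 23 and 27 stood at 0.0147 or less. Cluster 25 carried 6 of 11 GABAergic interneuron markers, with 0 among its top 10 genes, so its name rests on less than that of the others, which carried 8 to 10.

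Endothelial-like nuclei were the third Ret-positive class, at 0.066, 0.045 and 0.040 in wild-type and 0.049, 0.047 and 0.086 in heterozygous libraries, with a value in 4.13% of nuclei. All 6 libraries lay above every library of the classes ranked below, and the range overlapped with that of GABAergic interneuron-like nuclei. The unnamed clusters 4 and 19 held 25.2% and 14.7% of all Ret, at 0.054 and 0.148 per nucleus.

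Gfra1, the GDNF co-receptor gene, was spread over glia and small neuron groups. OPC-like nuclei were highest, at 1.13, 1.57 and 1.08 in wild-type and 1.07, 1.25 and 1.32 in heterozygous libraries. Committed precursor-like nuclei, at 0.956 ± 0.296, and astrocyte-like nuclei, at 0.916 ± 0.182, overlapped with them. Astrocyte-like nuclei held 29.1% of the summed value, the largest share of any class. Yet 2 of their 3 clusters carried it: cluster 3 stood at 1.27 ± 0.233 and cluster 22 at 1.11 ± 0.137, while the Slc6a11- and Agt-led cluster 9 stood at 0.0493 ± 0.0266, 25.7 times below cluster 3. In all 6 libraries cluster 9 was the lowest, and its level was near that of microglia-like nuclei (0.0381).

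The oligodendrocyte lineage differed by cluster in the same gene. The Opalin-carrying cluster 16 stood at 1.13 ± 0.242, cluster 2 at 0.303 ± 0.0284 and cluster 6, led by Anln and Hapln2 and left unnamed because a marker of committed precursors but none of its 10 oligodendrocyte markers was among its top 10 genes, at 0.0672 ± 0.0203. The order held in each library, and cluster 16 stood 16.8 times above cluster 6. Among neurons, Gfra1 was highest per nucleus in clusters 28 and 25. Glutamatergic cluster 28, which also had the most Bdnf, stood at 3.08, 4.62 and 6.02 in wild-type and 3.03, 5.80 and 3.31 in heterozygous libraries, with a value in 91.4% of nuclei; the other 3 glutamatergic clusters stood between 0.137 and 0.174. GABAergic cluster 25, the one with Ret, stood at 2.19, 3.04 and 2.37 in wild-type replicates and 2.41 and 2.80 in heterozygous replicates 2 and 3. The larger unnamed cluster 4, led by Sim1 and Baiap3, held more of the summed Gfra1 value, 11.1% against 6.41% in cluster 28 and 5.54% in cluster 25. It stood at 0.260, 0.269 and 0.552 in wild-type and 0.217, 0.577 and 1.23 in heterozygous libraries, with a value in 26.8% of its 2824 nuclei. Heterozygous replicate 3 was highest there, and the groups overlapped.

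**Figure D2:**
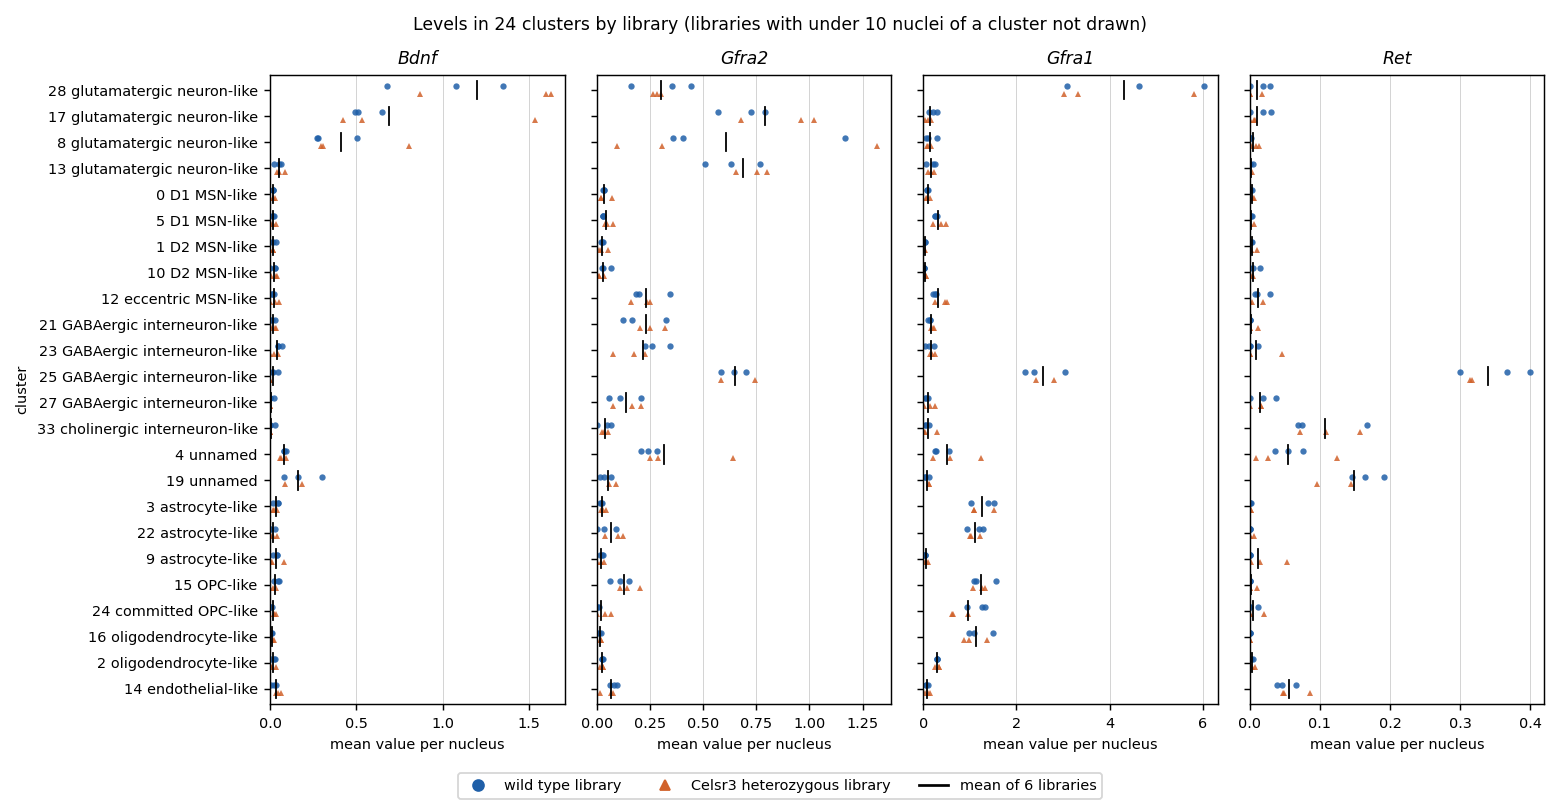
Mean value per nucleus (x axis, linear) of Bdnf, Gfra2, Gfra1 and Ret in 24 clusters (y axis, number and class); symbols are libraries as in the plot by class, and a library with fewer than 10 nuclei of a cluster is not drawn. Cluster 28 has the highest Bdnf and Gfra1 (1.2 and 4.31) and cluster 25 the highest Ret (0.339), while astrocyte-like cluster 9 has little Gfra1 (0.0493).

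Gfra2, the neurturin co-receptor gene, was highest in glutamatergic neuron-like nuclei, at 0.524, 0.662 and 0.521 in wild-type and 0.451, 0.389 and 0.904 in heterozygous libraries. These nuclei held 39% of the summed value, and 34.9% of them had a value, against 1.74% of microglia-like nuclei. By cluster the pattern was not that of Gfra1: clusters 17 and 13 stood at 0.791 ± 0.172 and 0.686 ± 0.11 and cluster 28 at 0.301 ± 0.0939. Cluster 8, at 0.609, was uneven, with 1.17 in wild-type replicate 2 and 1.32 in heterozygous replicate 3 but 0.0932 in heterozygous replicate 2, over 36, 75 and 118 nuclei. GABAergic interneuron-like nuclei followed at 0.308 ± 0.104, with 0.652 in cluster 25. Unnamed clusters held 24.3% of the summed Gfra2 value, most of it in cluster 4 (18.6%), which stood at 0.318 ± 0.16 with a value in 23.9% of nuclei and was highest in heterozygous replicate 3, at 0.639. Mural-like nuclei (pericytes and smooth muscle), at 0.243 ± 0.0692, and eccentric MSN-like nuclei, at 0.229 ± 0.0658, overlapped with the GABAergic class, while D1 and D2 MSN-like nuclei, at 0.0371 and 0.0291, were near the level of microglia-like nuclei (0.0295).

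Ret and its co-receptors met in few nuclei. In cluster 25, 80.6% of the 98 nuclei with Ret also had Gfra1, and so did 78.1% of those without Ret; for Gfra2 the shares were 46.9% and 41.1%. In the unnamed cluster 4, 40.6% of 138 nuclei with Ret had Gfra1, against 26.1% of those without, at medians of 3915 and 3734.5 genes per nucleus. Among 20 cholinergic interneuron-like nuclei with Ret, 1 had Gfra1 and 2 had Gfra2, and among 92 such nuclei of cluster 19, 10 had Gfra1. Conversely, of the 7884 nuclei with Gfra1, 174 had a Ret value. Dropout limits such counts, since 1 value per nucleus is the smallest seen and most Ret-positive nuclei sat at that level (mean of 1.18 where above 0).

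**Figure D3:**
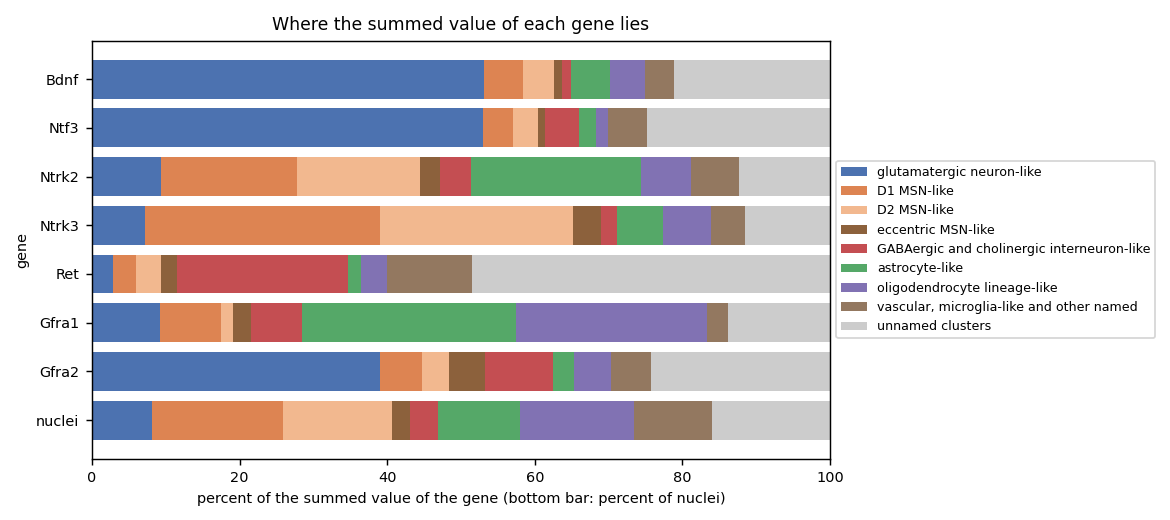
Share of the summed value of each gene (x axis, percent) by class (colours); the bottom bar gives the share of nuclei. Glutamatergic neuron-like nuclei are 8.12% of nuclei and hold 53.1% of Bdnf, 53.0% of Ntf3 and 39% of Gfra2, while unnamed clusters hold 48.5% of Ret.

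The class with the highest level was the same by mean value, by share of nuclei with a value and with doublets kept for 7 of 7 genes. As a description over 14 classes, the genes whose class pattern was most like that of Bdnf were Igfn1 (r = 0.96), Emx1 and Nrn1, among 13547 genes ranked by Pearson correlation of log2 means. For Ntf3 they were Gm47715 (0.97), Npr3 and Slc26a4, for Ntrk2 Tenm3 (0.93), Wwc1 and Trim9, and for Ntrk3 Agap2 (0.94) and Fgf14. For Ret they were Psma2 (0.92), Psmd4 and Fgd5, for Gfra1 Zfpm2 (0.88), Col16a1 and Pcsk6, and for Gfra2 Itga8 (0.91), Vsnl1 and Nrp2. The classes share libraries and differ in depth, so no test was attached.

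The 2 projection neuron types were compared within each library. Gfra1 stood at 0.127, 0.149 and 0.129 in wild-type and 0.159, 0.221 and 0.158 in heterozygous libraries of D1 MSN-like nuclei (neurons of the direct pathway). In D2 MSN-like nuclei (indirect pathway) it stood at 0.017, 0.036 and 0.045 and at 0.034, 0.048 and 0.042. D1 MSN-like nuclei were higher in 6 of 6 libraries, by 2.87 to 7.47 times, and the ranges did not overlap. The log2 difference was 1.85 ± 0.09 (SE; limma with library as block, adjusted p = 3.98e-13), and 0.90 with a pseudocount of 0.1 in place of 0.01. The D2 level (0.0371) was close to that of microglia-like nuclei (0.0381). Within D1 MSN-like nuclei the Drd3- and Pdyn-led cluster 5 stood at 0.313 ± 0.099 and cluster 0 at 0.0923 ± 0.0274, with cluster 5 higher in each library; the D2 clusters 1, 10 and 20 stood at 0.0301, 0.036 and 0.0837.

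Ntrk2 was called lower in D1 than in D2 MSN-like nuclei by a small margin, a log2 difference of -0.08 ± 0.03 (SE; limma, adjusted p = 0.0146). The call was lost without wild-type replicate 1 (-0.07, limma adjusted p = 0.0535), without heterozygous replicate 2 (-0.06, adjusted p = 0.0827) with no filter on low values (-0.08, adjusted p = 0.0783) and with nuclei matched between libraries on genes detected within each cluster (-0.05, adjusted p = 0.133). Ntrk3 differed by 0.02 ± 0.02 (adjusted p = 0.311) and Gfra2 by 0.25 ± 0.11 (adjusted p = 0.0902), and neither passed. Of the 4 members tested, 2 were called, where 36.6% of 13495 genes were; 28.3% of genes were higher and 8.28% lower in D1 MSN-like nuclei. With size-factor scaling that split became 1749 higher and 2595 lower, against 3820 and 1117; Gfra1 stayed at 1.77 and Ntrk2 at -0.18, both called, and Ntrk3 turned to -0.07 and was called (limma, adjusted p = 0.008). Bdnf, Ntf3 and Ret did not reach the filter in either class.

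The genotype comparison asks whether these genes differ between heterozygous and wild-type striatum. Over all nuclei 5 of the 7 passed the filter and 0 were called by limma, where 0 of 14395 genes (0.0%) were; at an unadjusted p under 0.05 there were 0 of the 5, and 9.93% of all genes. The log2 changes (heterozygous minus wild type, ± SE) were 0.23 ± 0.35 for Bdnf, -0.09 ± 0.11 for Ntrk2, 0.06 ± 0.13 for Ntrk3, 0.13 ± 0.16 for Gfra1 and 0.42 ± 0.27 for Gfra2, with limma adjusted p of 0.784, 0.747, 0.845, 0.751 and 0.571. The groups overlapped for each of the 5. Over all nuclei Bdnf was highest in heterozygous replicate 1, at 0.0912, and wild-type replicate 3, at 0.085, the 2 libraries with the most glutamatergic neuron-like nuclei; the part of composition in these levels was not tested.

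Within classes, 44 of 98 pairs of a member and a class passed the filter, and 0 were called by limma, where 0.00285% of all gene and class pairs were. An unadjusted p under 0.05 was found for 3 of the 44, where 6.19% of all gene and class pairs had one. The changes ran from -0.67 to 0.67 with a median of 0.01, and 23 of the 44 were above 0. Ntrk2 and Ntrk3 were tested in 14 classes each, Gfra1 in 9, Gfra2 in 5, Bdnf and Ntf3 only in the glutamatergic class and Ret in none. A member that passed only in a few classes passed because it was high there.

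For the ligands, Bdnf in glutamatergic neuron-like nuclei, with the library values given above, had a log2 change of 0.12 ± 0.35 (SE; limma adjusted p = 0.988). Ntf3 there changed by -0.11 ± 0.72 (limma adjusted p = 0.992), with both groups spread from low to high. The receptor genes in their highest classes moved little: Ntrk2 by 0.16 ± 0.10 in astrocyte-like (limma adjusted p = 0.852) and -0.19 ± 0.23 in eccentric MSN-like nuclei (0.993), and Ntrk3 by -0.01 ± 0.07 in D1 and 0.03 ± 0.07 in D2 MSN-like nuclei (limma adjusted p = 0.972 and 0.946). The 6 libraries of D1 MSN-like nuclei ran from 5.77 to 6.45 for Ntrk3, with the groups interleaved. Gfra2 changed by -0.06 in both its highest classes, glutamatergic and GABAergic, with SEs of 0.29 and 0.32 (limma adjusted p = 0.99 and 0.999). The clusters of the glutamatergic class differ in Bdnf, Ntf3 and Gfra2, and their mix varied by library. Cluster 8 gave 167 of 561, 36 of 195 and 517 of 910 nuclei in wild-type libraries. In heterozygous libraries it gave 775 of 1504, 118 of 211 and 75 of 508. The part of this mix in the changes of that class was not tested.

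All 3 pairs with a low unadjusted p were of Gfra1. For D1 MSN-like nuclei the heterozygous libraries (0.159 to 0.221) lay above the wild-type ones (0.127 to 0.149), the 1 pair of the 44 without overlap, where 11.8% of all gene and class pairs had none. The log2 change was 0.37 ± 0.15 (SE; limma adjusted p = 0.454), and it was 0.18 ± 0.17 with nuclei matched on genes detected within each cluster and 0.22 ± 0.13 without heterozygous replicate 2. Cluster 5, the D1 MSN-like cluster with the higher Gfra1 level, made up 23.7%, 26.5% and 27.5% of D1 MSN-like nuclei in wild-type and 30.3%, 34.4% and 26.3% in heterozygous libraries. Its share was highest in heterozygous replicates 1 and 2, the groups overlapped, and matching within clusters evens out this share as well as the number of genes. Eccentric MSN-like nuclei stood at 0.246, 0.284 and 0.205 in wild-type and 0.509, 0.461 and 0.255 in heterozygous libraries, a change of 0.67 ± 0.25 (limma adjusted p = 0.919). Committed precursor-like nuclei stood at 1.32, 0.943 and 1.26 in wild-type and 0.633, 0.625 and 0.959 in heterozygous libraries, a change of -0.67 ± 0.22 (limma adjusted p = 0.606). None of the 3 passed the adjustment. In OPC-like nuclei Gfra1 changed by -0.04 ± 0.19 (limma adjusted p = 0.985). In the GABAergic class its level in heterozygous replicate 1, 0.185, was low beside 0.603 to 1.17 in the others, and that library held 0 of the 363 nuclei of cluster 25. With cluster 25 left out, the class stood at 0.109, 0.097 and 0.166 in wild-type and 0.185, 0.223 and 0.206 in heterozygous libraries. That change was 0.71 ± 0.23 (SE, limma adjusted p = 0.68) and did not pass, in a setting added after the data were seen.

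**Figure D4:**
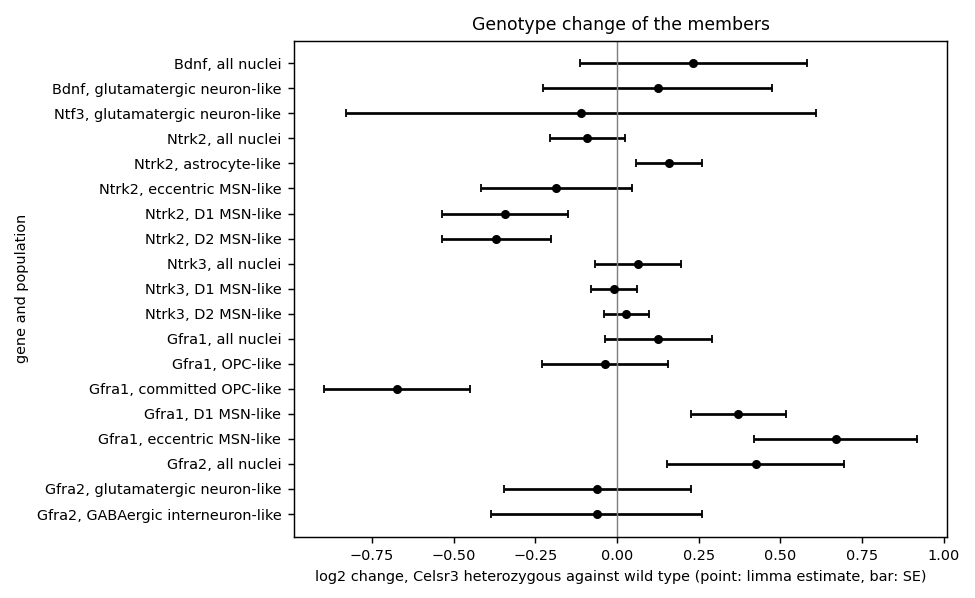
Log2 change (x axis, heterozygous minus wild type) of 6 of the 7 genes in the populations named in the text (y axis); points are limma estimates and bars 1 SE. None passed the adjustment over all genes; the estimates run from -0.67 to 0.67, both for Gfra1.

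The Ntrk2 result in MSN-like nuclei depended on which wild-type libraries were included. Its level was 3.05, 5.51 and 5.27 in wild-type and 3.40, 3.45 and 3.70 in heterozygous libraries of D1 MSN-like nuclei, and 3.43, 5.65 and 5.59 against 3.60, 3.94 and 3.54 in D2 MSN-like nuclei. Wild-type replicates 2 and 3 were high in both, while wild-type replicate 1 lay below all heterozygous libraries. The changes were -0.34 ± 0.19 and -0.37 ± 0.17 (SE) and did not pass (limma adjusted p = 0.581 and 0.59). Without wild-type replicate 1 they were -0.62 ± 0.06 and -0.61 ± 0.07 and passed (limma adjusted p = 0.00188 and 0.00353), where 1.55% and 0.966% of genes were called in that setting; the groups then held 2 and 3 libraries. Without wild-type replicate 2 the D1 and D2 changes were -0.19 and -0.25, and without wild-type replicate 3 they were -0.22 and -0.25, and none passed (lowest limma adjusted p = 0.852). With limma array weights, which give less weight to libraries that vary more, Ntrk2 was also called in D1 MSN-like nuclei (-0.54, adjusted p = 0.0475; 3.25% of genes called) and not in D2 (-0.50, adjusted p = 0.0734).

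Wild-type replicates 2 and 3 were the highest for Ntrk2 in 4 of 14 classes. These were D1 and D2 MSN-like, from which the pattern was taken, and eccentric MSN-like and glutamatergic neuron-like. The same 2 libraries were highest in 10 of the 26 clusters that had 20 nuclei or more in each library. Among these, clusters 0, 1, 5, 10 and 20 make up the D1 and D2 classes and cluster 12 is the eccentric MSN-like class. Clusters 8, 13 and 17 belong to the glutamatergic class. All of these are parts of the 4 classes and not further instances. The remaining cluster was the unnamed cluster 11, with a median of 1721 genes per nucleus. For Ntrk3 the pattern held in 0 of 14 classes, and for Gfra1 and Ntf3 in 1 each. How often it held over all genes was not counted. For Ntrk2, GABAergic interneuron-like nuclei (4.67, 4.1 and 4.43 against 5.19, 4.63 and 4.66), OPC-like nuclei and astrocyte-like nuclei did not show it. Over all nuclei kept, wild-type replicates 2 and 3 had median gene numbers of 2910 and 2829, within the 2841.5 to 3002 of the heterozygous libraries or just below, and wild-type replicate 1 had the lowest. These medians cover all classes. Oligodendrocyte-like nuclei, with a class median of 1847 genes, had their largest share in wild-type replicate 1, at 16.6%. The number of genes per MSN-like nucleus was not compared by library. With nuclei matched between libraries on genes detected, the Ntrk2 levels of D1 MSN-like nuclei were 3.10, 5.42 and 5.10 in wild-type and 3.33, 3.66 and 3.98 in heterozygous libraries, so the order of the wild-type libraries stayed, and the change was -0.27 ± 0.19 (SE; limma adjusted p = 0.678).

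**Figure D5:**
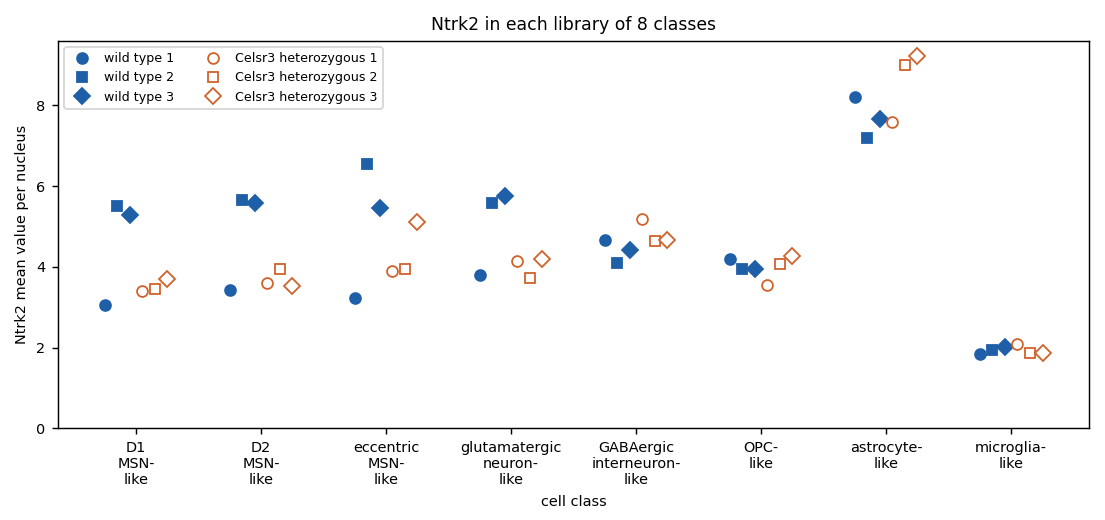
Mean Ntrk2 value per nucleus (y axis, from 0) in each of 6 libraries for 8 cell classes (x axis); filled symbols are wild-type and open symbols heterozygous libraries. In D1 MSN-like nuclei wild-type replicates 2 and 3 stand at 5.51 and 5.27, above the other 4 at 3.05 to 3.70, while astrocyte-like and microglia-like nuclei show no such split.

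The wider pathway list held 48 genes: other ligands, receptors and co-receptors, enzymes that process the propeptides, and adaptors and regulators of signalling. Of these 47 were in the table and 37 were tested over all nuclei; 25 had a change above 0 and the median was 0.09, beside 0.07 over all genes tested. By limma 0 were called, with 2 at an unadjusted p under 0.05, where 9.93% of all genes had one. The gene with the smallest p of each role was Gdnf among ligands (0.06 ± 0.26), Ptprs among receptors (0.23 ± 0.08, without overlap between groups, as for 19.3% of all genes), Pcsk5 among propeptide enzymes (0.44 ± 0.16) and Shc2 among adaptors (0.28 ± 0.12), with limma adjusted p of 0.928, 0.468, 0.471 and 0.504. Within classes 0 of 313 pairs were called and the unadjusted p was under 0.05 for 22, beside 6.19% of all gene and class pairs; the lowest adjusted p was 0.251, for the adaptor Gab2 in D1 MSN-like nuclei. Without wild-type replicate 1, 5 pairs were called: Sort1, Gab2 and Sos2 higher and Shc3 lower in D1 MSN-like nuclei, and Shc3 lower in D2 MSN-like nuclei, where 1.55% and 0.966% of all genes were called in the same setting.

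Between D1 and D2 MSN-like nuclei 33 of the list were tested and 14 were called, where 36.6% of all genes were, 7 higher and 7 lower in D1. The median difference of the list was 0.02, beside 0.08 over all genes. Gdnf, the ligand of GFRalpha1, was higher in D1 MSN-like nuclei by 0.83 ± 0.13 (SE; limma adjusted p = 2.08e-05), and so was Lingo1, a co-receptor partner of the p75 receptor, by 0.32 ± 0.04 (adjusted p = 7.44e-07). The Vps10p-domain receptor genes Sorcs3 and Sorcs2 were lower, by -1.05 ± 0.05 and -0.48 ± 0.03 (limma adjusted p = 1.61e-13 and 9.39e-13). With size-factor scaling 14 were called too, 2 higher and 12 lower; 9 were called both ways with the same sign, these 4 among them, and 3 of the first 14 changed sign.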

How the data were processed

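Per the labels' protocols, nuclei of 3 wild-type and 3 Celsr3 heterozygous striata were prepared with 10x Genomics 3′ v3.1 chemistry and sequenced on 1 lane; the submitters' processing notes name Cell Ranger, Seurat 4.1 and mm10/GRCm38 with no roles. The values deposited by the authors were treated as a score: depth-corrected, rounded UMI values per gene and nucleus, read from the values themselves (totals of 4523 to 10638 per nucleus, coefficient of variation 10.7%). The depth before this correction is unknown, so no counting interval was computed for a level; where a value was found in 0 nuclei, the limit given is for the share of nuclei with a value in the table.

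The 7 genes, the lists and the markers were chosen with earlier results of these data known. Nuclei were clustered without the members and the pathway list (2000 variable genes, 30 principal components, 15 neighbours, Leiden resolution 1.0, 44 clusters; scanpy 1.11.5). Scrublet's own threshold called 0.317% to 0.824% of nuclei; 941 nuclei (1.93%) with scores above 0.25, or in any of 6 clusters made up of such nuclei to more than 40%, were therefore removed. Clusters were called X-like from marker lists (at least 3 markers over 2-fold at a mean above 0.1, and 40% of the list or 1 among the top 10 genes by fold), unless another list had more markers among the top 10, or at least 50% of its markers and as many there; 17 classes were named, 14 with 20 or more nuclei in every library were tested, and 7 clusters stayed unnamed.

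Mean values per library and class were transformed as log2(mean + 0.01), a scale that understates changes of low genes, and fitted with limma 3.58.1 (trended empirical Bayes, two-sided) over genes with a mean of at least 0.02 and a summed value averaging at least 30 per library, with Benjamini-Hochberg adjustment per population and a threshold of 0.05. D1 and D2 MSN-like nuclei were compared with the library as a block. The fits were run on simulated data with known changes and normal noise on the log2 scale. Those data held no differences in composition and no single deviating library, so they do not speak to either. Members were named in every population; single genotype results were given for all nuclei and the 2 highest tested classes, and the 3 most similar genes over classes; a few gene names and values are not reported here. For the pathway list, called genes were named, or otherwise the gene with the smallest p of each role; 4 of the D1 against D2 calls, the Ntrk2 results in D1 and D2 MSN-like nuclei and Gfra1 in D1 and eccentric MSN-like nuclei were singled out after their values were seen.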

Additional observations from a re-analysis of the deposited data

How the results depend on the processing

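Each single result was refitted under 13 or 14 alternatives (pseudocounts, no filter, size-factor scaling, all nuclei kept, nuclei matched between libraries on genes detected within cluster, replicate block, array weights, each library left out and, added after seeing the data, the GABAergic class without cluster 25). Of 260 such values for the results named by rule, 224 kept their direction and side of the threshold. Another 31 changed sign, and no genotype change among these passed the threshold. The cause of the sign changes was not tested. The 260 leave out the results singled out after their values were seen: Ntrk2 in D1 and D2 MSN-like nuclei and Gfra1 in D1 and eccentric MSN-like nuclei. In most settings few genes of any kind were called by genotype, so keeping a side of the threshold says little there. Members called by genotype in classes went from 0 to 1 under array weights and to 2 when wild-type replicate 1 was left out (Ntrk2); for the pathway list these settings gave 4 and 5 calls, and for all genes 437 and 210 in D1 and 173 and 124 in D2 MSN-like nuclei, against 2 and 1. The members called between D1 and D2 MSN-like nuclei fell from 2 to 1 with no filter, with matched nuclei, and without wild-type replicate 1 or heterozygous replicate 2; over all genes 4505 of 24441, 3259 of 12160, 4611 of 13591 and 4186 of 13410 were called in these settings, against 4937 of 13495. Ntrk2 between D1 and D2 lost its call with no filter (-0.08, limma adjusted p = 0.0783) and matched nuclei (-0.05), and Ntrk3 there turned to -0.071 with size-factor scaling. Gfra2 there passed without wild-type replicate 3 (0.37, limma adjusted p = 0.0108). With array weights the genotype change of Bdnf turned to -0.36 in all and -0.17 in glutamatergic neuron-like nuclei, Gfra1 in OPC-like nuclei to 0.053 and Gfra2 in the GABAergic class to 0.039. With matched nuclei Ntrk3 in D1 MSN-like turned to 0.018, Gfra1 in OPC-like to 0.089 and Gfra2 in glutamatergic nuclei to 0.16; a pseudocount of 0.1 turned Ntf3 to 0.019, and leaving out cluster 25 turned Gfra2 in the GABAergic class to 0.054. Gfra1 in committed precursor-like nuclei and Ntf3 gave no value with matched nuclei, since they did not reach the filter.

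With 1 library left out, the genotype changes ran from -0.043 to 0.57 (Bdnf, all nuclei), -0.27 to 0.34 (Bdnf, glutamatergic), -0.74 to 0.68 (Ntf3), -0.21 to -0.025, 0.11 to 0.25 and -0.48 to 0.028 (Ntrk2 in all, astrocyte-like and eccentric MSN-like nuclei), -0.037 to 0.18, -0.054 to 0.033 and -0.011 to 0.066 (Ntrk3 in all, D1 and D2 MSN-like nuclei), -0.011 to 0.28 and -0.14 to 0.13 (Gfra1 in all and OPC-like nuclei), and 0.20 to 0.66, -0.42 to 0.17 and -0.38 to 0.29 (Gfra2 in all, glutamatergic and GABAergic nuclei; 0.016 in all nuclei with array weights). Between D1 and D2 the ranges were -0.11 to -0.06 for Ntrk2, 0.17 to 0.37 for Gfra2 and 1.75 to 1.95 for Gfra1.

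Replicate numbers are shared by both groups. Deviations of same-numbered libraries correlated across genes at 0.269, 0.0185 and 0.184 in D1 and 0.248, 0.0292 and 0.179 in D2 MSN-like nuclei. In all nuclei they correlated at -0.0375, 0.144 and -0.0717. Libraries with different numbers ran from -0.280 to 0.210 in D1, -0.260 to 0.183 in D2 and -0.148 to 0.183 in all nuclei. The numbers were not taken to pair the mice, and whether they mark a step shared by MSN-like nuclei was not tested. With the replicate block 3 and 5 genes were called in D1 and D2 MSN-like nuclei, against 2 and 1, and 0 members were called in classes, as without it (Ntrk2 in D1 MSN-like: limma adjusted p = 0.404). Ret was tested in no class: its class means reached 0.108, but its summed value averaged under 30 per library in each.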

Other observations

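Gdnf had a high level in the cholinergic interneuron-like class, in which Ret had its highest mean of the 14 classes tested. Only 20 of its 196 nuclei held a Ret value, and 1 of those 20 had Gfra1. Gdnf, the ligand that acts through GFRalpha1 and Ret, stood there at 0.667, 0.775 and 0.759 in wild-type and 0.821, 0.974 and 0.784 in heterozygous libraries, with a value in 56.6% of nuclei against 9.09% of GABAergic interneuron-like, 5.64% of D1 MSN-like and 0.255% of microglia-like nuclei. These 196 nuclei, 0.409% of those kept, held 12.1% of the summed Gdnf value, and D1 MSN-like nuclei held 39.7%. Ngfr, the gene of the p75 receptor, was uneven there, from 0 of 28 nuclei in heterozygous replicate 1, which allows a share of nuclei with a value, not of nuclei that express it, of up to 10.7% for counting error only, to a level of 0.542 in wild-type replicate 1.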
